A study of Mus musculus with 6 samples.

Results

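Levels of 8 genes of the major histocompatibility complex (MHC) class II presentation pathway were taken from RNA sequencing of mouse fetal liver common myeloid progenitors, precursors of granulocytes, monocytes, megakaryocytes and red cells. The genes are H2-Aa, H2-Ab1, H2-Eb1, Cd74, H2-DMa, H2-DMb1, H2-DMb2 and Ciita, chosen by name, and all 8 were found among the 24815 genes listed in the files. The mutant libraries C, D and Q came from E13.5 (embryonic day) embryos homozygous for a deletion of the -77 enhancer of Gata2, the gene of a transcription factor of blood stem and progenitor cells, and the WT libraries A, F and L from E13.5 embryos with the enhancer intact. Both groups were C57BL/6, a strain whose H2-Ea gene is not expressed, so its cells form no I-E molecule. In both groups the cells were sorted from disaggregated liver as negative for lineage antigens of T cells (CD3, CD4, CD5 and CD8), B cells (B220), granulocytes (Gr-1) and red cells (TER-119), for CD41 and CD48, and for Sca-1, positive for CD34 and c-Kit, and low for Fc receptor. The labels do not say how many embryos or litters gave each library, so a p-value here covers the spread among libraries, which may be technical.

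MHC class II molecules are pairs of an alpha and a beta chain that show peptides from endosomes to CD4 T cells. The invariant chain Cd74 guides the new pair to the endosome and leaves a fragment in its groove, which the H2-DM pair (H2-DMa with H2-DMb1 or H2-DMb2) exchanges for other peptides. The coactivator Ciita switches these genes on together, through the factors RFX, CREB and NF-Y bound to the X and Y boxes of their promoters, mainly in dendritic cells, B cells and activated macrophages.

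The X and Y boxes can be read in the promoters of several class II genes. The stretches shown here are from 3 of the genes and from H2-Ob, the beta chain of the related H2-DO pair, and share no base with an annotated exon. They come from RefSeq promoter windows of GRCm38.p6 and run 5′ to 3′ on the gene's strand, with the letters AAC of the X box and TGATTGG of the Y box in capitals. They lie at chr17:34287857-34287912 (minus strand) for H2-Aa, and on the plus strand at chr17:34305768-34305822 for H2-Eb1, chr17:34145118-34145173 for H2-DMb2 and chr17:34238810-34238862 for H2-Ob.
H2-Aa: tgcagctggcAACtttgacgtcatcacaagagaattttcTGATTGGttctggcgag
H2-Eb1: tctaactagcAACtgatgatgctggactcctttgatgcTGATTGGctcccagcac
H2-DMb2: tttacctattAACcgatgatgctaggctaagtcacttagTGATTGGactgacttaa
H2-Ob: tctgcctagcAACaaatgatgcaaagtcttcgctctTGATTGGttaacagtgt
The X core AAC followed by TGATTGG after a gap of 23 to 26 bases, a range set after these windows had been read, was searched on both strands of all 32851 windows, each from 250 bases before to 50 after a gene's start. It was present in 151 windows (0.460%), while TGATTGG alone was present in 2568 (7.82%). Of the 5 genes with a window, 4 held the arrangement (H2-Aa, H2-Eb1, H2-DMb1 and H2-DMb2). Outside the 8 genes, H2-Eb2, a relative of the I-E beta chain, also held it away from annotated exons and is not shown. Both windows of H2-DMa, at chr17:34122582-34122881 and chr17:34125268-34125567, lacked TGATTGG. Sequence of this gene outside the windows was not searched.

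The libraries held 14800563 to 30596279 expected counts in the mutants and 14473913 to 21509720 in WT. Expected counts are the reads that RSEM assigned to each gene; they were scaled here to a common library size (CPM) with TMM factors, and the deposited TPM values, which correct for gene length, serve to compare genes with each other. Gata2 was at 8.92, 16.5 and 17.8 CPM in mutants C, D and Q, against 78.6, 57.4 and 63.9 CPM in WT A, F and L. Its log2 fold change in edgeR's quasi-likelihood test was -2.20 with all libraries (adjusted p = 0.068) and -1.97 when mutant C was left out (adjusted p = 0.0019). Mutant C stood apart: its TMM factor was 0.614, against 1.06 to 1.17 in the other 5 libraries, and the count-weighted mean length of its genes was 1781 bases, against 2834 to 3124 bases. Among 8 listed genes of common myeloid progenitors, only some of them genes of the sort antigens, 0 were called. The genes of CD41, CD48 and the lineage antigens were not in this list. The groups did not overlap in CPM for 3 of the 8 (Cd34, Kit and Il3ra, the last not a sort antigen), against 22.0% of all genes tested. Cd34 was at 998 to 1254 CPM in mutants and 685 to 862 CPM in WT, but overlapped in TPM. Kit was at 102, 292 and 270 CPM in mutants C, D and Q, against 330, 337 and 317 CPM in WT A, F and L.

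In these progenitors the class II genes were present at unequal levels, with the exchange factor H2-DM above the chains that display peptide. H2-DMa had the highest level, 22.1 ± 3.02 TPM (SD, n = 6 libraries of both genotypes), above 78.7% of all listed genes. H2-DMb2 followed at 5.32 ± 1.38 TPM and H2-DMb1 at 4.40 ± 0.562 TPM, and these neighbours overlapped in range. H2-Ab1, the beta chain of the I-A molecule, was at 3.53 ± 0.900 TPM and also overlapped H2-DMb1, although it was lower than H2-DMb1 in all 6 libraries. Cd74 was at 1.19 ± 0.356 TPM, with a range below that of H2-Ab1. H2-Aa, the alpha chain that pairs with H2-Ab1, was at 0.432 ± 0.273 TPM and overlapped Cd74 in range. H2-Eb1 was at 0.210 ± 0.123 TPM and overlapped H2-Aa, and Ciita was lowest at 0.0283 ± 0.0204 TPM, above 34.9% of listed genes. The class I light chain B2m, in the same cells, was at 621 to 907 TPM in mutants and 621 to 702 TPM in WT.

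**Figure D1:**
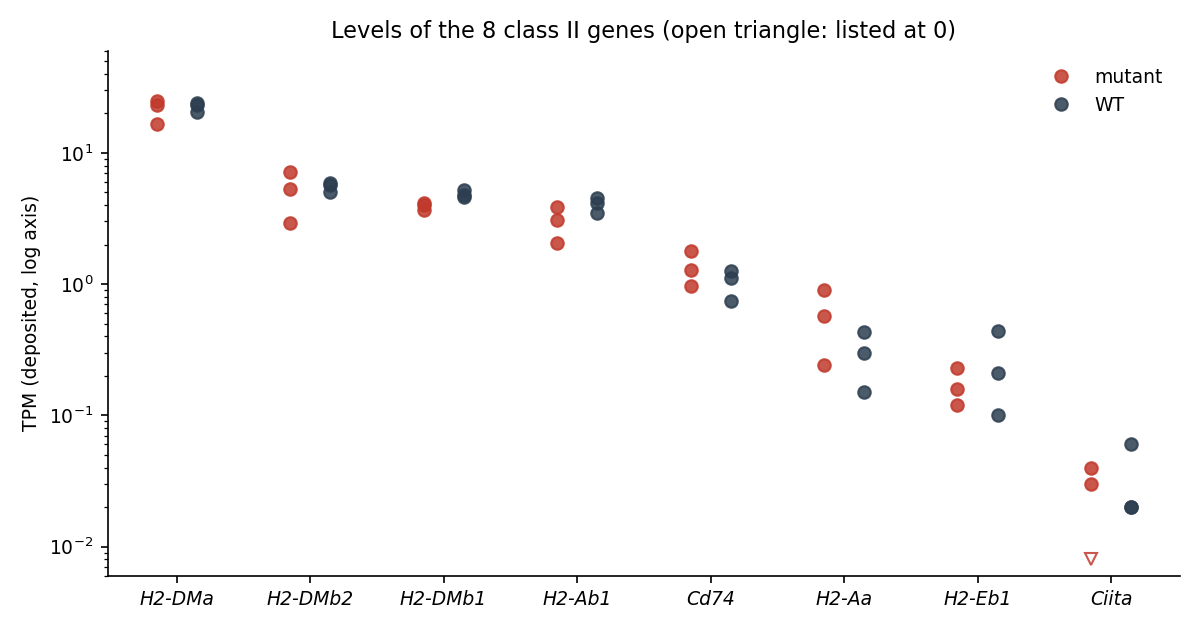
Deposited TPM (log axis) of the 8 class II genes in mutant (left of each pair) and WT (right) libraries, 1 point per library, with the genes ordered by their mean over 6 libraries. H2-DMa lies above all other genes in every library, and Ciita is listed at 0 in mutant C, drawn as an open triangle.

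Within a library, the level of H2-DMa kept to a narrow range relative to its partners. The ratio of H2-DMa to the sum of H2-DMb1 and H2-DMb2 in TPM was 2.42, 2.20 and 2.60 in mutants C, D and Q, against 2.20, 2.18 and 2.12 in WT A, F and L. H2-DMa made up 57.6% to 62.8% of the summed TPM of the 8 genes. The I-A chains were less even: the ratio of H2-Ab1 to H2-Aa in TPM was 2.27, 6.84 and 12.7 in mutants C, D and Q, against 10.6, 27.8 and 11.5 in WT A, F and L, with 1 to 14 counts of H2-Aa behind each value.

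Between genotypes, none of the 8 genes passed the test. Of 12222 genes kept by a filter on low counts, 19 (0.155%) had an adjusted p under 0.05 in edgeR's quasi-likelihood test with all libraries, of which 18 fell and 1 rose in mutants. With mutant C left out the test called 106 of 12614 genes (0.84%), 96 lower and 10 higher in mutants. The filter kept 5 of the 8 class II genes, Cd74, H2-Ab1, H2-DMa, H2-DMb1 and H2-DMb2, and 0 of the 5 were called in either comparison. At an unadjusted p under 0.05, 587 genes and 1 of the 5 (Cd74) passed with all libraries, and 1306 genes and 1 of the 5 (H2-DMa) passed without mutant C. DESeq2 and limma-voom also called 0 of the class II genes. The median log2 fold change of the 5 genes was 0.47, against -0.02 over all genes tested, and without mutant C it was 0.23, against -0.01.

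H2-Ab1, on chromosome 17 at 34257689 to 34269419 (plus strand, GENCODE M21, mm10), encodes the I-A beta chain and had 34, 51 and 69 expected counts in mutants C, D and Q, against 63, 41 and 37 in WT A, F and L. Its normalised level was 3.74, 2.44 and 2.14 CPM in mutants C, D and Q, against 2.50, 2.59 and 2.19 CPM in WT A, F and L. Mutant C was highest, mutant Q was lowest and the groups overlapped. The log2 fold change was 0.16 (SE 0.29, 95% interval -0.53 to 0.85, adjusted p = 0.75, edgeR). Leaving out mutant C gave -0.10 (interval -0.66 to 0.47). With a term for gene length in the fit it was -0.28, so the sign differed between settings.

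H2-Aa, at 34282744 to 34287823 on the minus strand of chromosome 17, encodes the I-A alpha chain and did not pass the filter. It had 14, 7 and 5 counts in mutants C, D and Q, against 4, 1 and 3 in WT A, F and L. Scaled, this was 1.54, 0.335 and 0.155 CPM in mutants C, D and Q, against 0.159, 0.0631 and 0.178 CPM in WT A, F and L. Mutants C and D lay above every WT library and mutant Q lay below 2 of them, so the groups overlapped. The summed counts were 26 in mutants and 8 in WT, a ratio of 3.02 (95% interval 1.33 to 7.72, counting error only) relative to the TMM-scaled library totals. Relative to the unscaled totals the ratio was 2.59 (interval 1.14 to 6.61). Mutant C held 14 of the 26 counts, and with it left out the TMM-scaled ratio was 1.63 (interval 0.614 to 4.61); these alternatives were added after the data were seen. An exact two-sided permutation test over the 6 libraries gave p = 0.3, where the smallest p this design allows is 0.1.

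H2-Eb1, the I-E beta chain, lies at 34305867 to 34316674 on the plus strand of chromosome 17 and had 2, 2 and 5 counts in mutants C, D and Q, against 6, 2 and 1 in WT A, F and L. The groups overlapped. The ratio of the summed counts was 0.930 relative to the TMM-scaled totals (interval 0.327 to 2.64, counting error only) and 0.795 relative to the unscaled totals (interval 0.280 to 2.26), with 9 counts in each group and p = 0.8 in the exact permutation test. The intervals leave out the spread between libraries, so at this depth even a difference outside them might not have been detected.

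**Figure D2:**
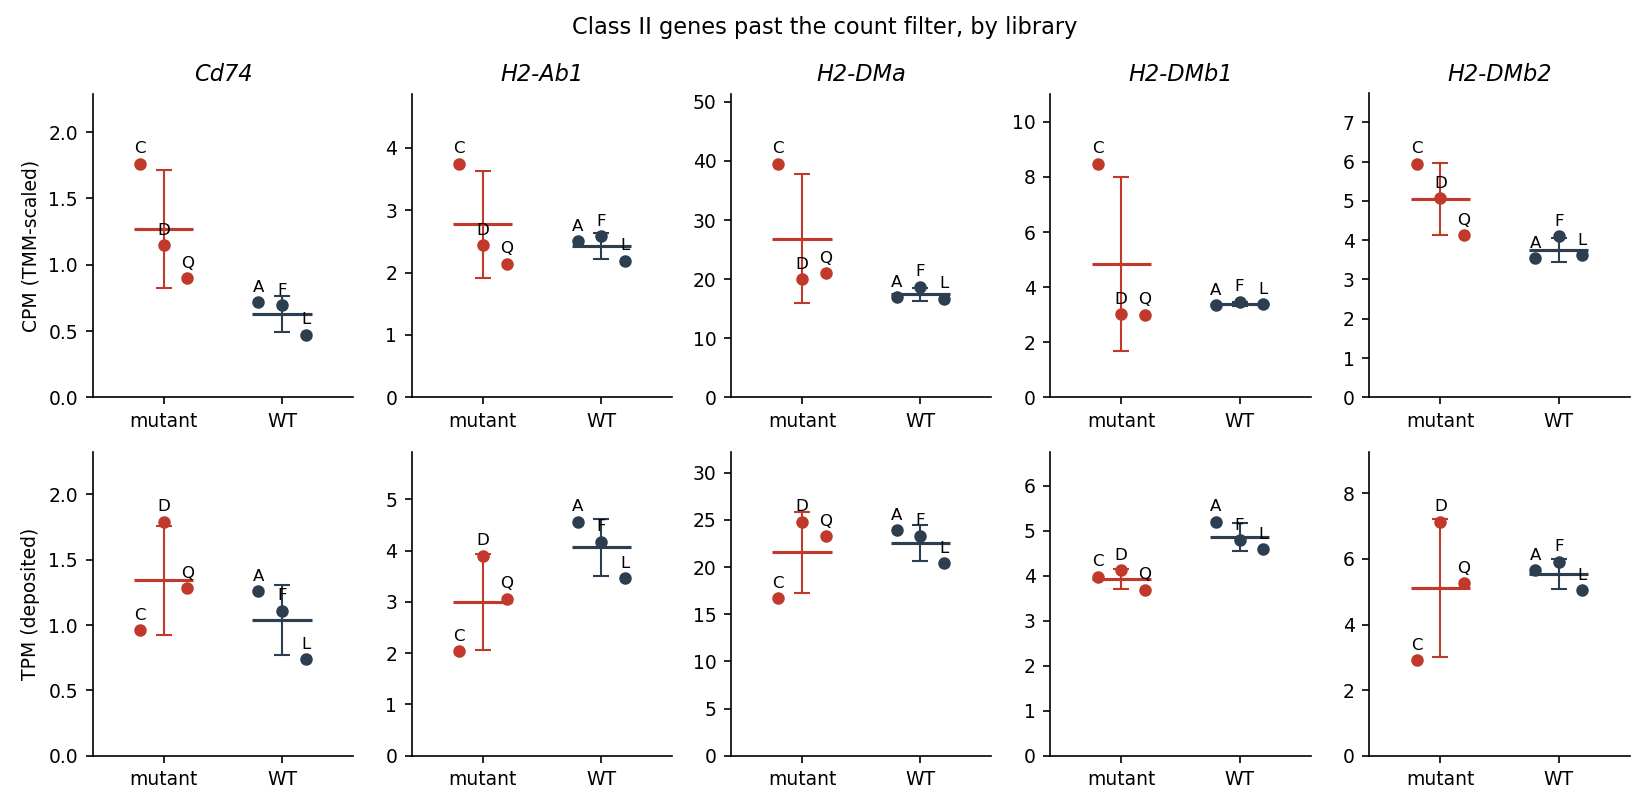
CPM scaled by TMM (top) and deposited TPM (bottom) of the 5 class II genes past the count filter, with 1 lettered point per library, mutant left and WT right; lines and bars are the mean and SD of 3 libraries. In CPM mutant C is the highest library for each gene, and in TPM mutant C is the lowest for H2-Ab1, H2-DMa and H2-DMb2.

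H2-DMa, the alpha chain of the peptide exchange factor, lies on chromosome 17 at 34119541 to 34139101 (plus strand). It had 359, 419 and 679 counts in mutants C, D and Q, against 427, 297 and 282 in WT A, F and L. It was at 39.5, 20.0 and 21.0 CPM in mutants C, D and Q, against 17.0, 18.7 and 16.7 CPM in WT A, F and L. Every mutant library was above every WT library, with mutants D and Q close to the highest WT value. Non-overlap of the groups in CPM was found for 2693 of the 12222 genes (22.0%) and for 3 of the 5 class II genes tested (Cd74, H2-DMa and H2-DMb2). The log2 fold change of H2-DMa was 0.61 (SE 0.29, interval -0.08 to 1.31, adjusted p = 0.58, edgeR). Without mutant C it was 0.23 (SE 0.10, interval 0.004 to 0.45, adjusted p = 0.48).

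The beta chains of H2-DM are encoded by neighbouring near copies, H2-DMb2 at 34143307 to 34151555 and H2-DMb1 at 34153072 to 34160230, both on the plus strand of chromosome 17. Their transcripts were 94.4% identical over 1255 aligned bases, and 27.2% of the 50-base windows of H2-DMb1 occurred unchanged in H2-DMb2, so the split of reads between them is uncertain. H2-DMb1 was at 8.48, 3.01 and 3.01 CPM in mutants C, D and Q, against 3.34, 3.47 and 3.37 CPM in WT A, F and L. Mutant C was far above all other libraries, while mutants D and Q were below every WT library. H2-DMb2 was at 5.95, 5.07 and 4.12 CPM in mutants C, D and Q, against 3.54, 4.10 and 3.61 CPM in WT A, F and L, and every mutant library was above WT. The log2 fold change was 0.47 for H2-DMb1 (SE 0.45, adjusted p = 0.61, edgeR) and 0.42 for H2-DMb2 (SE 0.22, adjusted p = 0.58). Leaving out mutant C gave -0.18 (SE 0.20) for H2-DMb1 and 0.28 (SE 0.20) for H2-DMb2. Summed, which does not depend on the split, the gene pair had a log2 fold change of 0.45 (adjusted p = 0.58), or 0.08 when mutant C was left out (adjusted p = 0.87); this sum was added after the data were seen.

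Cd74, the invariant chain, lies on chromosome 18 at 60803848 to 60812652 (plus strand). It had 16, 24.2 and 29 counts in mutants C, D and Q, against 17.5, 11 and 8 in WT A, F and L. It was at 1.76, 1.15 and 0.899 CPM in mutants C, D and Q, against 0.716, 0.694 and 0.474 CPM in WT A, F and L. Every mutant library was above every WT library. The log2 fold change was 0.94 (SE 0.37, interval 0.05 to 1.84), the largest of the 5, with an unadjusted p of 0.042 and an adjusted p of 0.58 in edgeR. Without mutant C it was 0.67 (SE 0.37, interval -0.20 to 1.54, adjusted p = 0.57). In TPM the gene overlapped between genotypes, at 0.960, 1.79 and 1.28 in mutants C, D and Q, against 1.26, 1.11 and 0.740 in WT A, F and L.

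Ciita, the coactivator of the class II genes, lies at 10480059 to 10528418 on chromosome 16 (plus strand) and was near the detection limit in every library. It had 0, 2 and 4 counts in mutants C, D and Q, against 1.02, 1 and 3 in WT A, F and L. A count of 0 in mutant C allows up to 0.330 CPM (3 counts). The groups overlapped, and the exact permutation test gave p = 0.8. The ratio of the summed counts was 1.12 relative to the TMM-scaled totals (interval 0.284 to 4.62, counting error only) and 0.955 relative to the unscaled totals (interval 0.243 to 3.95), so its direction depended on the scaling. Its exons share 111 bases with Dexi on the opposite strand.

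**Figure D3:**
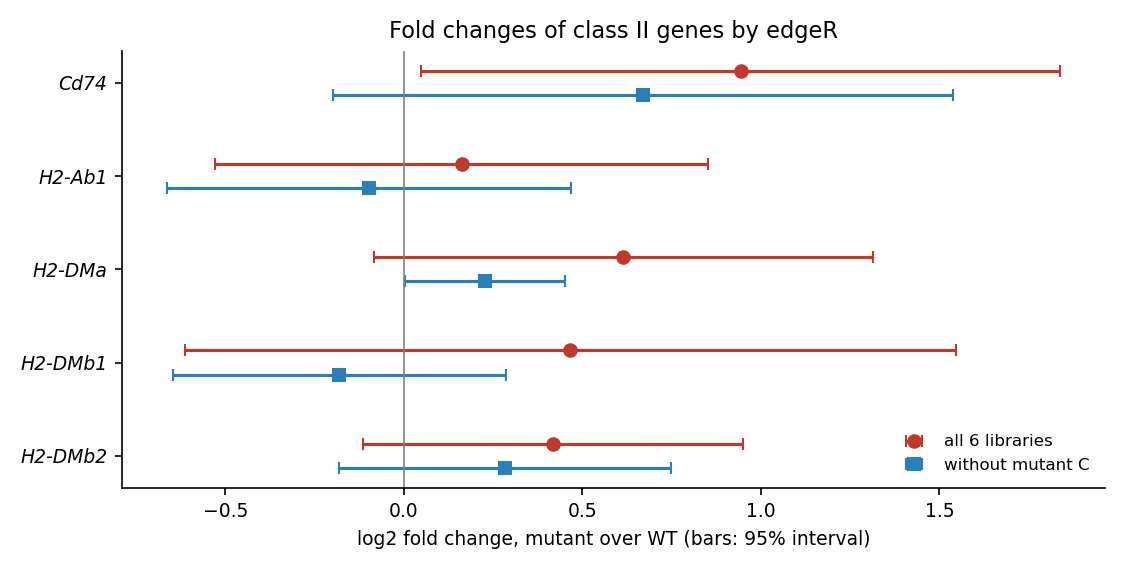
Log2 fold change, mutant over WT, of the 5 tested class II genes in edgeR, with 95% intervals; circles are all 6 libraries and squares leave out mutant C. With all libraries every point lies above 0, from 0.16 to 0.94, and without mutant C H2-Ab1 and H2-DMb1 lie below 0.

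The fold changes of the 5 genes depended on scaling. In the deposited TPM the median of all genes tested was itself -0.56 on the log2(TPM + 0.5) scale. On that scale the values were 0.25 for Cd74, -0.41 for H2-Ab1, -0.08 for H2-DMa, -0.27 for H2-DMb1 and -0.18 for H2-DMb2. Relative to the median they were 0.81 for Cd74, 0.15 for H2-Ab1, 0.48 for H2-DMa, 0.29 for H2-DMb1 and 0.38 for H2-DMb2. Uncentred, H2-DMb1 was at 3.98, 4.13 and 3.69 TPM in mutants C, D and Q, against 5.20, 4.79 and 4.59 TPM in WT A, F and L. It was the only one of the 5 whose groups did not overlap in TPM, which held for 3159 of all 12222 genes (25.8%). Summed over the 8 genes, the level was 61.2, 32.2 and 31.6 CPM in mutants C, D and Q, against 27.5, 29.8 and 26.8 CPM in WT A, F and L. The summed TPM was 27.6, 42.5 and 37.1 in mutants C, D and Q, against 41.4, 39.7 and 34.7 in WT A, F and L, so mutant C was highest in CPM and lowest in TPM. In a fit of the counts with a term for gene length, the log2 fold changes were 0.51 for Cd74, -0.28 for H2-Ab1, 0.26 for H2-DMa, -0.01 for H2-DMb1 and 0.07 for H2-DMb2, with a median of 0.00064 over all genes tested.

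The H2-DO pair, which inhibits H2-DM, was detected in every library. H2-Oa, its alpha chain, was at 3.76, 3.68 and 3.71 TPM in mutants C, D and Q, against 4.28, 4.77 and 3.55 TPM in WT A, F and L. H2-Ob was at 0.940, 3.10 and 2.58 TPM in mutants C, D and Q, against 2.26, 2.51 and 2.33 TPM in WT A, F and L. In TPM the mutant and WT ranges overlapped for both. In CPM H2-Ob did not overlap, at 3.30, 3.54 and 3.75 in mutants C, D and Q, against 2.78, 3.09 and 2.90 in WT A, F and L. Neither was called, with log2 fold changes of 0.59 for H2-Oa (adjusted p = 0.59, edgeR) and 0.28 for H2-Ob (adjusted p = 0.58). H2-Eb2, a relative of the I-E beta chain, did not pass the filter.

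Factors that act with Ciita were present. Of 20 listed, which include the RFX and NF-Y subunits and interferon signalling genes, 20 were tested, 0 were called, and their median log2 fold change was -0.12, or -0.03 without mutant C. Rfx5, the RFX subunit that binds the X box, was at 3.17, 11.9 and 10.3 TPM in mutants C, D and Q, against 18.4, 12.5 and 12.6 TPM in WT A, F and L. The mutant libraries were all below WT, and its log2 fold change in counts was -0.33 (SE 0.19, adjusted p = 0.58, edgeR). Irf8, a factor of monocyte and dendritic cell development, was at 147, 193 and 173 CPM in mutants C, D and Q, against 153, 131 and 134 CPM in WT A, F and L, a log2 fold change of 0.29 (adjusted p = 0.58). Jak2, a kinase of the interferon-gamma receptor, was at 34.7, 59.8 and 54.5 CPM in mutants, against 69.6, 73.0 and 74.0 CPM in WT, with no overlap and a log2 fold change of -0.54 (adjusted p = 0.58). The groups did not overlap in CPM for 5 of the 20, against 22.0% of all genes tested. Of these, Rfx5, Nfya and Jak2 were lower in mutants, and Irf1 and Spi1 were higher.

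Endosomal proteases and peptide handling genes, 15 tested, included 0 called genes, with a median log2 fold change of 0.38, or 0.03 without mutant C. Ctss, the protease that trims the invariant chain, was at 23.5, 27.3 and 19.0 TPM in mutants C, D and Q, against 24.3, 22.4 and 23.6 TPM in WT A, F and L. Cst3, a secreted inhibitor of cathepsins, was at 878, 186 and 188 CPM in mutants C, D and Q, against 137, 146 and 170 CPM in WT A, F and L. All 3 mutants were above WT and mutant C was far above the rest; the log2 fold change was 1.47 with all libraries and 0.30 without mutant C (adjusted p = 0.58 and 0.34, edgeR). Of 16 tested class I presentation genes, 0 were called, with a median of 0.48, or 0.08 without mutant C. For B2m the log2 fold change was 1.07 with all libraries and 0.08 without mutant C.

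Molecules that act beside class II on the cell surface had fold changes of both signs, none past the adjusted threshold. Of 6 tested, 0 were called and 3 had an unadjusted p under 0.05 with all libraries, against 4.80% of all genes tested. The groups did not overlap in CPM for 4 of the 6 (Cd80, Cd86, Cd40 and Cd274), against 22.0% of all genes tested. In TPM Cd80 and Cd86 overlapped, while Cd40 and Cd274 did not. Cd86, a ligand of CD28, was at 13.3, 8.46 and 7.69 CPM in mutants C, D and Q, against 3.90, 6.43 and 5.39 CPM in WT A, F and L, a log2 fold change of 0.90 (adjusted p = 0.58, edgeR). Cd80, the other CD28 ligand, was at 1.101, 0.765 and 0.558 CPM in mutants, against 0.358, 0.252 and 0.178 CPM in WT, a log2 fold change of 1.49 (adjusted p = 0.58). Behind these Cd80 values were 10, 16 and 18 counts in mutants C, D and Q, against 9.1, 4 and 3 in WT A, F and L. Cd274, the ligand of PD-1, was at 1.98, 5.02 and 5.67 CPM in mutants, against 7.12, 8.70 and 8.70 CPM in WT, a log2 fold change of -0.91 (adjusted p = 0.58). Cd40, the receptor for the T cell ligand CD154, was at 0.991, 1.43 and 1.36 CPM in mutants, against 4.69, 2.08 and 1.48 CPM in WT, a log2 fold change of -1.11 (adjusted p = 0.58). Without mutant C the log2 fold change was 0.63 for Cd86, 1.24 for Cd80, -0.61 for Cd274 and -1.01 for Cd40.

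**Figure D4:**
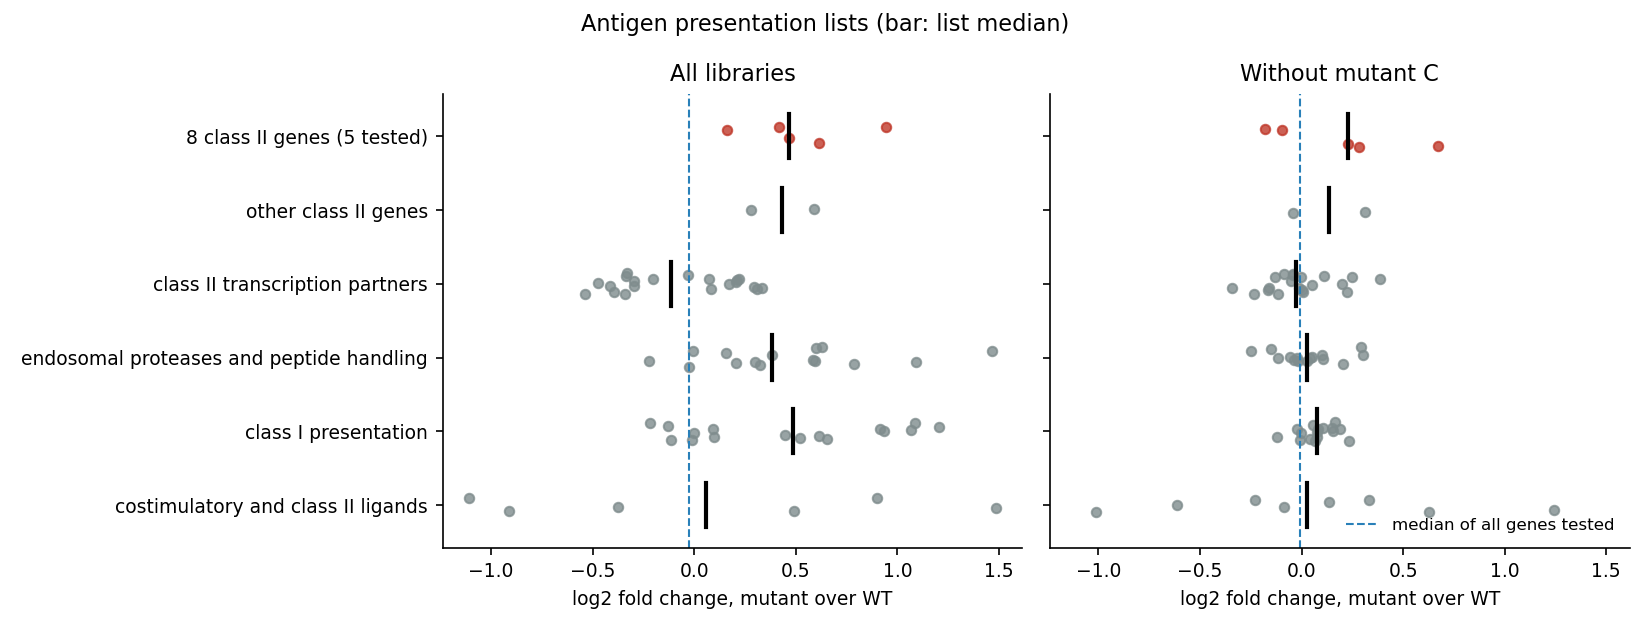
Log2 fold change, mutant over WT, of the tested class II genes and 5 related lists in edgeR, with all libraries (left) and without mutant C (right); each point is 1 gene, black bars are list medians and the dashed line is the median of all genes tested. The median of the class II genes is 0.47 on the left and 0.23 on the right.

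Markers of dendritic cells, B cells and macrophages, the main cell types that express class II genes, were measured in the same libraries; in bulk samples fewer cells of a type and less RNA per cell cannot be told apart. The summed level of 13 dendritic cell markers was 378 to 470 CPM in mutants and 383 to 435 CPM in WT, and 0 were called. Most of this sum came from Flt3, Sirpa, Tcf4 and Bst2, and Flt3, a receptor shared by progenitors and dendritic cells, made up 131 to 160 CPM in mutants and 128 to 159 CPM in WT. Of 12 tested, 3 had an unadjusted p under 0.05, against 4.80% of all genes tested. The groups did not overlap in CPM for 4 of the 12, against 22.0% of all genes tested. In counts Cd209a was higher in mutants (log2 fold change 1.29), as was Clec10a (0.79). Zbtb46, a factor of classical dendritic cells, was lower (-1.18), as was the chemokine receptor Ccr7 (-0.81). Each of these 4 had an adjusted p of 0.58 in edgeR. In TPM Cd209a, Zbtb46 and Ccr7 kept these directions without overlap. Clec10a overlapped in TPM, and its mean was lower in mutants, at 1.23 TPM against 1.41 TPM in WT. The 12 macrophage markers summed to 178 to 223 CPM in mutants and 164 to 187 CPM in WT, of which Csf1r made up 149 to 202 CPM in mutants and 146 to 166 CPM in WT. Of the 6 tested, all overlapped between the groups in CPM. Of the 6 under the filter, C1qc, Timd4 and Vcam1 were higher in CPM in every mutant than in every WT library, while C1qa and Mertk overlapped. How often genes under the filter do not overlap was not computed. C1qc was at 1.87, 0.382 and 0.372 CPM in mutants C, D and Q, against 0.119, 0.0631 and 0.355 CPM in WT A, F and L. Behind its WT values were 3, 1 and 6 counts. In TPM C1qc overlapped, at 0.54 in mutant Q against 0.56 in WT L. Vcam1 overlapped in TPM too, at 0.10 in mutant C against 0.18 to 0.23 in WT. Timd4 had 6, 4 and 14 counts in mutants C, D and Q, against 2, 1 and 3 in WT A, F and L. The 11 B cell markers summed to 116, 42.4 and 39.9 CPM in mutants C, D and Q, against 32.1, 44.1 and 43.7 CPM in WT A, F and L, mostly from Cd79b. The 6 innate lymphoid markers summed to 12.6 to 18.9 CPM in mutants and 16.1 to 19.7 CPM in WT. No marker of these lists was at 0 in all libraries, and 0 were called. The 8 hepatoblast markers summed to 183, 78.4 and 582 CPM in mutants C, D and Q, against 85.8, 47.9 and 26.5 CPM in WT A, F and L. Their median log2 fold change was 2.83, or 2.97 without mutant C, and 0 were called. With all libraries 8 of the 8 were above 0, against 48.0% of all genes tested. An unadjusted p under 0.05 in edgeR was found for 5 of them, against 4.80% of all genes tested. The part of these cells in the class II values was not tested.

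Across the 6 libraries, the genes whose log2 CPM most resembled the summed level of the 8 class II genes were Fbxo36, Anapc15, Mettl1, Babam1 and Gpr89. Pearson's r was 0.998 to 0.999, a description with no test over libraries that include mutant C, and 0.969 to 0.997 over the 5 other libraries. Fbxo36 was at 5.51, 1.77 and 1.74 CPM in mutants C, D and Q, against 1.39, 1.64 and 1.36 CPM in WT A, F and L. Mettl1 was at 72.6, 39.2 and 38.4 CPM in mutants C, D and Q, against 34.8, 37.1 and 34.3 CPM in WT A, F and L. All 5 genes had their highest level in mutant C.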

How the data were processed

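RNA sequencing of 3 mutant and 3 WT libraries was analysed. Per the submitters' processing notes, the reads were processed with CASAVA 1.8.2, Bowtie 1.1.1 and RSEM 1.2.18 on mm10; the sources used here give neither the annotation release nor the strandedness. The deposited expected counts are unnormalized and the deposited TPM are corrected for length and scaled to a common total, per the file headers; the length column gave the gene lengths in bases. Expected counts were rounded and tested with edgeR 4.0.16 in R 4.3.3 (filterByExpr with a minimum count of 10, TMM, quasi-likelihood F test, Benjamini-Hochberg adjustment over all genes tested, threshold 0.05). Genes under the filter were compared by an exact permutation test, and their summed counts by exact intervals, which cover counting error only. DESeq2 1.42.0, limma 3.58.1 on counts and on log2(TPM + a pseudocount of 0.5 or 0.1), other filters and factors, a length term and the removal of each library were alternatives. The code was tested on simulated data. Depth was 14473913 to 30596279 expected counts, and libraries of 1 group differed by a chi-square per gene of 9.80 or more, above counting noise, which does not show whether they are biological replicates. Each was counted as 1 sample, as labelled. Replicate letters differ between the groups. The 8 genes and the related lists were chosen with earlier results of these data known. By rule all 8 genes are named, with up to 4 genes of each list by p or level and the 5 genes most alike. More than 4 were named from the factors that act with Ciita and from the dendritic cell markers, taking p and level together. C1qc, Timd4, Vcam1, C1qa and Mertk were chosen after their values were seen. List symbols H2-Ea and H2-Ea-ps were not matched. Promoter sequences came from RefSeq. A value of 1 list gene is not reported here.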

Additional observations from a re-analysis of the deposited data

How the results depend on the processing

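None of the class II genes was called under any setting run, with a smallest adjusted p of 0.37 among the 5 tested genes. Of 75 values of these 5 under other settings, 63 kept their direction and 12 reversed. Over all genes, 19 passed the threshold; the count was 36 with no filter, 54 with a length term, 124 in DESeq2 and 32 in limma-voom, and 0 to 106 when 1 library was left out (106 without mutant C and 0 without each of the others). The H2-Ab1 log2 fold change was -0.28 with the length term, -0.41 and -0.46 in TPM with pseudocounts of 0.5 and 0.1, and -0.10 to 0.33 with 1 library left out. The H2-DMb1 value was -0.0096 with the length term, -0.27 and -0.30 in TPM, and -0.18 to 0.74 with 1 library left out. In TPM the H2-DMa value was -0.0778 and -0.0796 and the H2-DMb2 value -0.18 and -0.20. The TPM scale lowers the median of all genes to -0.56 and -0.63, and relative to it all 5 values were positive. With no filter, H2-Eb1 was at -0.0016 and Ciita at 0.011, and in DESeq2 they were at 0.057 and -0.10. The cause of these reversals was not tested. No paired analysis was possible because the replicate letters differ between the groups. H2-Aa, H2-Eb1 and Ciita had at most 14 counts in a library, which limits what a comparison could detect.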
